A study of Mus musculus with 12 samples.

Results

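The proteasome is the protease that degrades proteins tagged with ubiquitin, and its subunits are encoded by the Psm genes. All 48 genes of the deposited count table whose symbol is Psm, a letter from a to g and a number were taken, out of 30154 genes in the table. The rule uses the symbols and no measured value, although the family was picked with earlier results of these data known. They comprise 8 alpha-ring genes (Psma1 to Psma8), 7 constitutive beta-ring genes (Psmb1 to Psmb7), 3 immunoproteasome genes (Psmb8, Psmb9, Psmb10), the thymus subunit gene Psmb11, 6 ATPase genes (Psmc1 to Psmc6), 8 lid genes (Psmd3, Psmd6, Psmd7, Psmd8, Psmd11, Psmd12, Psmd13, Psmd14), 3 genes of other base subunits (Psmd1, Psmd2, Psmd4), 7 assembly chaperone genes (Psmd5, Psmd9, Psmd10, Psmg1 to Psmg4), and 5 genes of activators and an inhibitor (Psme1 to Psme4, Psmf1). All 48 passed the filter on low counts and were among the 15890 genes tested.

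The barrel of the proteasome, the 20S core, is built of rings of alpha and beta subunits. Psmb5, Psmb6 and Psmb7 carry its constitutive proteolytic sites, and Psmb8, Psmb9 and Psmb10, which interferon-gamma induces in many cells, replace them in the immunoproteasome, which produces peptides for presentation on MHC class I. The 19S cap consists of a base, whose ATPases unfold substrates, and a lid, whose deubiquitinase Psmd14 removes the ubiquitin chain. Psme1 and Psme2 form the interferon-induced PA28 activator, Psme3 forms the nuclear activator PA28 gamma, Psme4 is PA200, and Psmf1 (PI31) inhibits the isolated core in vitro. The transcription factor Nfe2l1 is processed by the protease Ddi2 and drives the subunit genes together when the proteasome is inhibited. Muscle stem cells rest in uninjured muscle and proliferate after injury, and proteasome activity is needed for their survival and expansion.

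RNA was sequenced in bulk from flow-sorted muscle stem cells of the tibialis anterior, gastrocnemius and quadriceps of C57BL/6J mice aged 2-3 months. Wild-type mice were compared with mice labelled as Sestrin1,2 knockout, before injury (day 0) and 7 and 21 days after injury. Sestrins are induced by stress and restrain the growth kinase mTORC1. Each genotype and day had 2 libraries, so n = 2 for every group below. The kind of injury, the design of the knockout alleles and the number of animals behind a library are not given in the sources used here, so p-values measure only the spread between these libraries, which may be technical. In bulk samples, fewer cells of a type cannot be told apart from less RNA per cell.

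Library totals were between 28396780 and 38950514 estimated counts, of which the 48 genes took 0.353% to 0.718%. Of the targeted genes, Sesn2 separated the genotypes before injury, with 75.1 and 84.3 CPM (estimated counts scaled to library size) against 5.47 and 7.03, and on day 7, with 44.9 and 47.4 against 2.36 and 1.92. On day 21 it went against 2 labels: replicate 1 was low under both, with 8.92 (labelled wild type) and 9.86 CPM (labelled knockout), and replicate 2 high under both, with 82.1 and 108 CPM. Sesn1, the other gene of the knockout label, was lower in knockout and still present, with 70.3 and 68.6 CPM against 46.0 and 45.8 before injury and 84.0 and 67.9 against 28.4 and 22.4 on day 7. On day 21 Sesn1 was at 43.7 and 78.3 (labelled wild type) and 41.7 and 67.2 CPM (labelled knockout), replicate 1 first. Genotype differences at day 21 are therefore given as labelled only. Comparisons of day 21 with another day average over both labels. Markers of muscle stem cells were present in every library: Pax7 lay between 3.14 and 19.2 TPM (a level per transcript length, scaled to the library) and Myf5 between 12.6 and 74.7 TPM. Between day 0 wild type and knockout, 7 of the 10 marker genes of these cells were called lower in knockout, with none called higher, where 12.6% of all tested genes were called lower and 14.8% higher.

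Motifs that regulators of these genes are known to bind were searched on both strands of RefSeq promoters (GRCm38.p6, 250 bases before to 50 after the start), which matched 40 of the 48 genes. Promoters are shown for 4 genes: for Psmb5 and Psmb6, constitutive sites with the antioxidant response element core TGACNNNGC, which Nfe2l1 and Nfe2l2 bind, for Psmb8, an immunoproteasome site with the interferon-gamma activated site TTCNNNGAA, and for Psme1, a PA28 gene with the interferon-stimulated element core, which is GAAA, any 2 bases and GAAA. Capitals mark the motif, which in Psme1 lies on the opposite strand.
Psmb5 (chr14:54617946-54618245, minus strand): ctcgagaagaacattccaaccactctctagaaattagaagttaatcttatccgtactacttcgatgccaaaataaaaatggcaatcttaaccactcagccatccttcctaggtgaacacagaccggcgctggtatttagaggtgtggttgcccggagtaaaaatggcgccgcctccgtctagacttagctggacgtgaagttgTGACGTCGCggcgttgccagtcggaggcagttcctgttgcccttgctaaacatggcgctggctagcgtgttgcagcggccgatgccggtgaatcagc
Psmb6 (chr11:70525107-70525406, plus strand): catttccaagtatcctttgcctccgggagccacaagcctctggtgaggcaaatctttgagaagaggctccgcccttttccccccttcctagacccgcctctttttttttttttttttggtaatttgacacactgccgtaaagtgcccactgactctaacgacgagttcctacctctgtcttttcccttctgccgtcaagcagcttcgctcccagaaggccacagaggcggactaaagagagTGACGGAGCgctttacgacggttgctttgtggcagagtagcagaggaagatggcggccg
Psmb8 (chr17:34197945-34198244, plus strand): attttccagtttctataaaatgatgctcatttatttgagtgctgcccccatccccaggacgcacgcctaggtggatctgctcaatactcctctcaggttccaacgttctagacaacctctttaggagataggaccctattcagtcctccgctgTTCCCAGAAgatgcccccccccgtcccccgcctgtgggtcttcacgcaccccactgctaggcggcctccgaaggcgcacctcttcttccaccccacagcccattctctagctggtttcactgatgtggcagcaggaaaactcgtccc
Psme1 (chr14:55578244-55578543, plus strand): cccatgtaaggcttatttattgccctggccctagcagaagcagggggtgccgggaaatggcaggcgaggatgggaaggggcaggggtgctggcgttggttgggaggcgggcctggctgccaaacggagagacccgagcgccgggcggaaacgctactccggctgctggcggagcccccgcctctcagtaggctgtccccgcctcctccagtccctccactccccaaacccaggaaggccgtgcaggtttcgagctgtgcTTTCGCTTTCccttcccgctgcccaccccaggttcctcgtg

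TGACNNNGC occurred in 6 of the 40 promoters (15.0%; Psmb5, Psmb6, Psmc6, Psmd9, Psmd12, Psme4) and in 12.4% of all 27018 promoters. CCAAT, the motif of the factor NF-Y, occurred in 14 of 40 (35.0%) and in 38.0% of all. The interferon-stimulated element core occurred in 5 of 40 (12.5%; Psmb3, Psmd4, Psmd9, Psme1, Psmg4) and in 3.5% of all, and TTCNNNGAA in 3 of 40 (7.5%; Psmb8, Psmd2, Psmg1) and in 8.4% of all. The first 2 motifs and the last were thus about as common in these promoters as elsewhere. These are matches of letters, and no binding was measured.

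The 48 genes together took 0.569% to 1.044% of the summed TPM of a library. The constitutive core was the most abundant group: its 14 genes, Psma8 left out, summed to 3317 and 3288 TPM (wild type) and 2831 and 2683 TPM (knockout) before injury, 4544 and 4512 (wild type) and 4549.8 and 4618 (knockout) on day 7, and 2649 and 3084 (labelled wild type) and 2508 and 2392 (labelled knockout) on day 21. All 4 libraries of day 7 thus lay above all other libraries, and the day 0 knockout libraries lay below the day 0 wild-type libraries. The ATPase genes summed to 848 to 945 TPM at day 0, 1373 to 1444 at day 7 and 748 to 893 at day 21, and the lid genes to 889 to 925, 1524 to 1582 and 862 to 971. Within the core the levels differed by gene: Psmb6 was the highest, at 449 to 824 TPM over the 12 libraries, and Psma2 among the lowest, at 35.5 to 67.5. The immunoproteasome genes were far lower, with 45.9 to 60.9 TPM for all 3 summed at day 0. Psma8, the alpha subunit of germ cells, was at 0.734 TPM or less (0 to 28 counts), and Psmb11, the thymus subunit, at 0.274 TPM or less (4 to 26 counts).

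**Figure D1:**
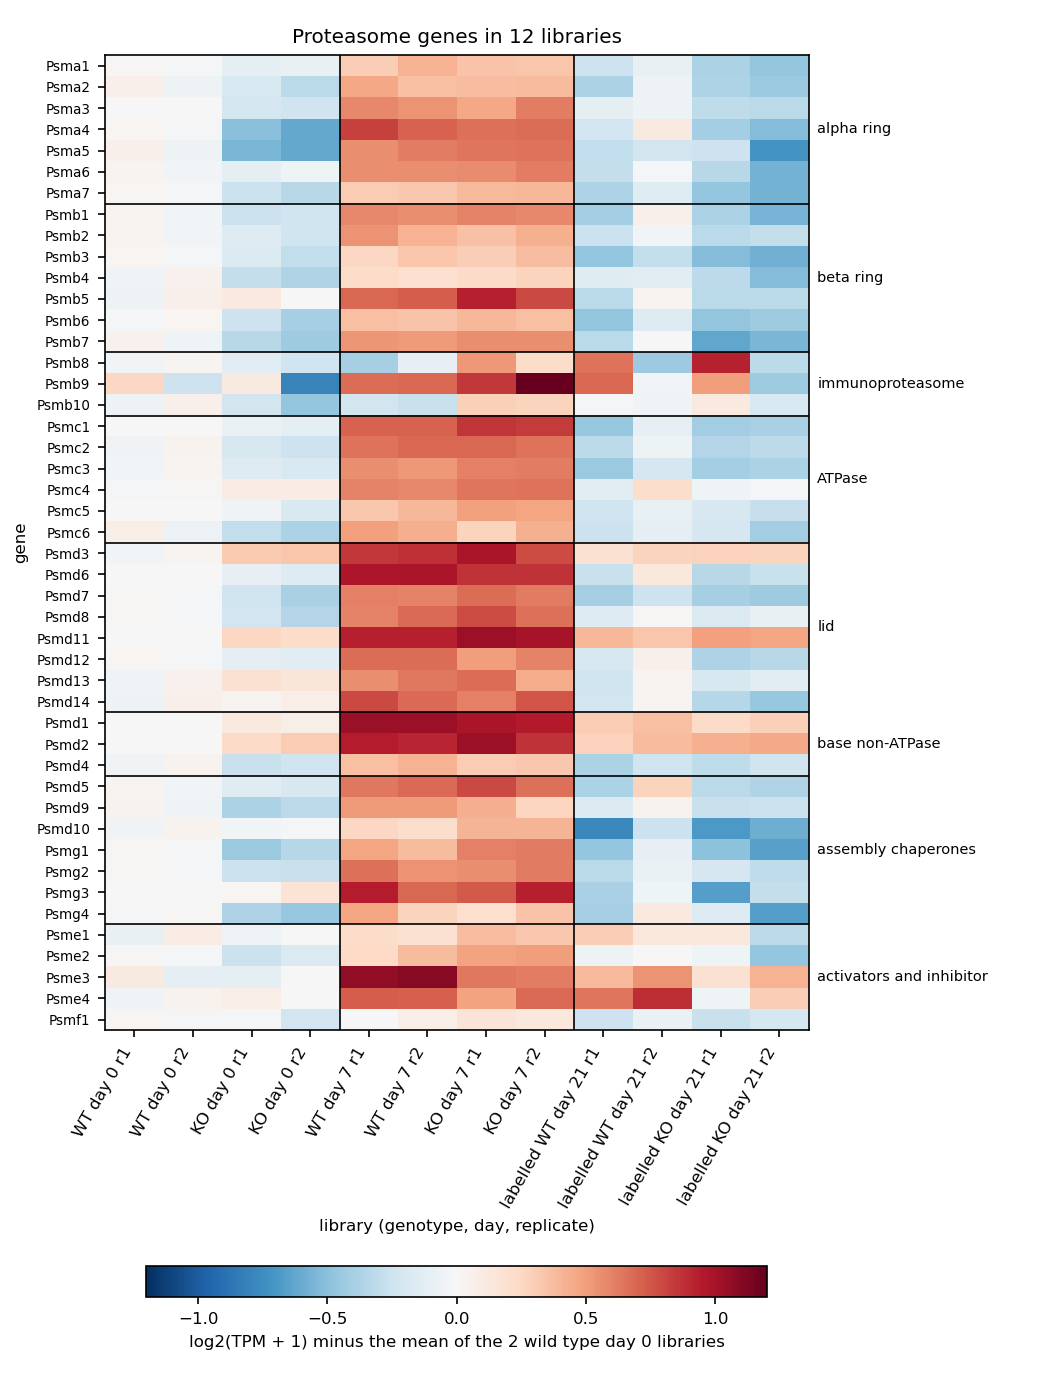
Log2(TPM + 1) of 46 Psm genes (rows, by subunit group; Psma8 and Psmb11 are left out) in the 12 libraries (columns), as the difference from the mean of both wild-type day 0 libraries. The day 7 columns are red for nearly all core and cap genes, and the Psmb8 row departs from the rows around it.

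Genes of every part of the constitutive core and cap rose from day 0 to day 7. Averaged over genotypes, 39 of the 48 genes were called higher and none lower, at an edgeR quasi-likelihood adjusted p under 0.05, against 31.2% of all tested genes called higher and 26.2% called lower. The median log2 fold change of the 48 was 0.46, against 0.05 for all tested genes. All 31 constitutive core and cap genes were called higher, by 0.21 to 0.84 on the log2 scale, and in 29 of them every day 7 library lay above every day 0 library in CPM, which held in that direction for 25.2% of all tested genes. The 9 genes not called were Psma8, Psmb8, Psmb9, Psmb10, Psmb11, Psmd10, Psmg4, Psme1 and Psmf1.

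The alpha ring gates the barrel. Psma4 was at 166 and 160.2 TPM (wild type) and 115 and 106 TPM (knockout) before injury, 289 and 267 (wild type) and 257 and 259 (knockout) on day 7, and 138 and 175 (labelled wild type) and 122 and 113 (labelled knockout) on day 21. The day 7 libraries of Psma4 lay above all others, and the knockout libraries of day 0 lay below both wild-type ones. Psma4 rose at day 7, with a log2 fold change of 0.84 (SE 0.0767, adjusted p = 6.91e-06). In the beta ring, Psmb7 was at 125 and 116 TPM (wild type) and 94.9 and 89.3 TPM (knockout) before injury, 174 and 171 (wild type) and 178 and 177 (knockout) on day 7, and 95.4 and 120.0 (labelled wild type) and 77.7 and 81.5 (labelled knockout) on day 21. The day 7 libraries were again above the rest with no overlap, and Psmb7, the trypsin-like site, rose with a log2 fold change of 0.56 (SE 0.0638, adjusted p = 3.35e-05). Psmb5, the chymotrypsin-like site whose promoter is given above, was at 158 and 171 TPM (wild type) and 178 and 164 TPM (knockout) before injury, and at 265 and 272 (wild type) and 315 and 286 (knockout) on day 7. No day 0 library of Psmb5 reached the day 7 libraries, and it rose with a log2 fold change of 0.58 (SE 0.0728, adjusted p = 6.40e-05). Psmb6, the caspase-like site, was at 612 and 637 TPM (wild type) and 527 and 473 TPM (knockout) before injury, and at 800.1 and 793 (wild type) and 824 and 802 (knockout) on day 7, again without overlap. Psmb6 had a log2 fold change of 0.14 (SE 0.0856, adjusted p = 0.215) in wild type, which was not called, and of 0.56 (SE 0.0860, adjusted p = 4.12e-04) in knockout.

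The ATPases of the base unfold the substrate and thread it into the core. Psmc2 was at 93.4 and 98.6 TPM (wild type) and 83.7 and 80.3 TPM (knockout) before injury, 151 and 155 (wild type) and 155 and 152 (knockout) on day 7, and 77.1 and 92.0 (labelled wild type) and 75.2 and 76.9 (labelled knockout) on day 21. The day 7 libraries of Psmc2 were the highest in both genotypes, and it rose with a log2 fold change of 0.61 (SE 0.0568, adjusted p = 7.61e-06). All 6 ATPase genes were called higher, with log2 fold changes from 0.30 to 0.65, where 31.2% of all tested genes were called higher. The 8 lid genes were all called higher too, from 0.39 to 0.83. Psmd11, a lid subunit that promotes assembly of the whole particle, was at 131 and 133 TPM (wild type) and 156 and 154 TPM (knockout) before injury, and at 253 and 252 (wild type) and 269 and 262 (knockout) on day 7. Its libraries of these days did not overlap, and it rose with a log2 fold change of 0.73 (SE 0.0568, adjusted p = 2.04e-06). Psmd1, a scaffold of the base that holds the ubiquitin receptor Adrm1, was at 94.7 and 94.6 TPM (wild type) and 103 and 99.3 TPM (knockout) before injury, and at 196 and 193 (wild type) and 188 and 184 (knockout) on day 7. Psmd1 had the smallest adjusted p of the 31 core and cap genes, with a log2 fold change of 0.77 (SE 0.0533, adjusted p = 9.50e-07). Of the assembly chaperones 5 of 7 were called higher. Psmg2, which pairs with Psmg1 to seed the alpha ring, had the smallest adjusted p among them, with a log2 fold change of 0.57 (SE 0.0849, adjusted p = 2.21e-04), and Psmg3 the largest change, with 0.73 (SE 0.118, adjusted p = 3.78e-04). Psmd10 (gankyrin) and Psmg4 were not called, with log2 fold changes of 0.19 (SE 0.123, adjusted p = 0.221) and 0.35 (SE 0.147, adjusted p = 0.0609).

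Within wild type, 28 of the 48 genes were called higher at day 7 and 1 lower, against 25.8% and 21.2% of all tested genes. Within knockout, 40 were called higher and none lower, against 24.7% and 22.2%. The medians of the 48 were 0.30 in wild type and 0.57 in knockout, beside 0.06 and 0.03 for all tested genes. All 8 lid genes were called in both genotypes, whereas the alpha ring had 4 of 8 called in wild type and 7 of 8 in knockout, and the beta ring 4 of 7 and 7 of 7. Psmd1 had a log2 fold change of 0.82 ± 0.0754 (SE) in wild type and 0.72 ± 0.0754 in knockout, Psma5 of 0.44 ± 0.0947 and 1.01 ± 0.0958, and Psmd8 of 0.40 ± 0.0809 and 0.89 ± 0.0815. Without wild-type day 0 replicate 1, replicate 2 or wild-type day 7 replicate 1, 16, 18 or 19 genes were called in wild type. On log2(TPM + 1), the median change of all 13953 genes with enough signal was 0.24 in wild type and 0.12 in knockout, and the medians of the Psm genes on that scale were 0.56 and 0.69.

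**Figure D2:**
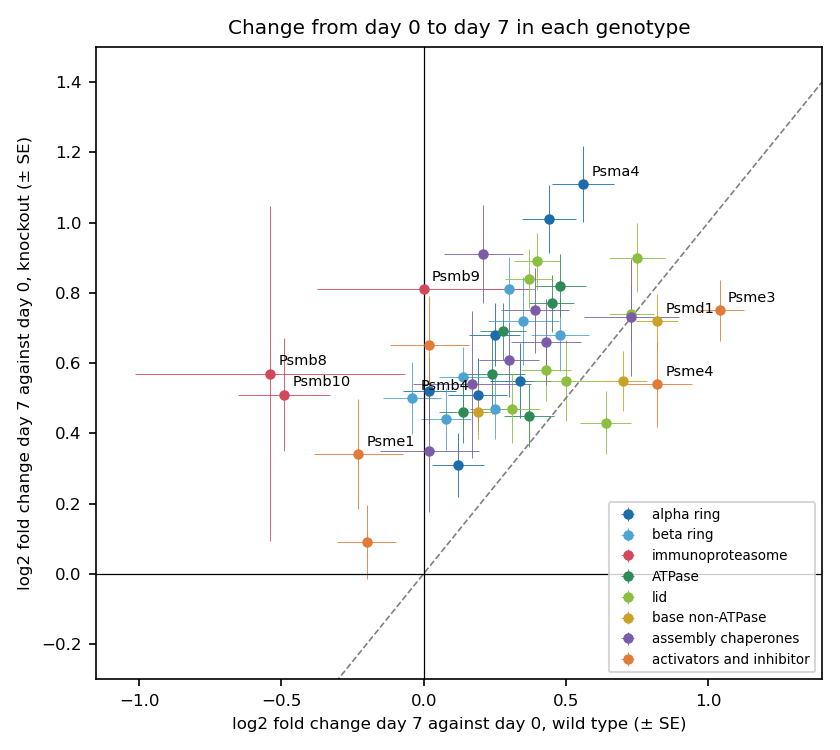
Log2 fold change from day 0 to day 7 in wild type (horizontal) against that in knockout (vertical) for 46 Psm genes, with standard errors from the edgeR fit and colours for subunit groups. The dashed line marks equal change. The immunoproteasome genes lie at or left of 0 in wild type and above 0 in knockout, and Psme3 and Psme4 lie to the right of the line.

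Genes that act with the proteasome were followed through lists. Of 15 tested partners (shuttle receptors, deubiquitinases, assembly factors and associated ligases), 9 were called higher and 3 lower at day 7 averaged over genotypes, with a median of 0.25, where 31.2% of all tested genes were called higher and 26.2% lower. Ubqln4, a shuttle receptor, rose with a log2 fold change of 0.85 (SE 0.0662, adjusted p = 2.14e-06), and Usp14, the deubiquitinase of the base, with 0.53 (SE 0.0736, adjusted p = 1.32e-04). Pomp, which matures the beta ring, was at 97.5 and 90.1 TPM (wild type) and 72.6 and 60.7 TPM (knockout) before injury, 101 and 106 (wild type) and 108 and 107 (knockout) on day 7, and 61.5 and 79.7 (labelled wild type) and 58.6 and 54.4 (labelled knockout) on day 21. The knockout libraries of Pomp were below the wild-type ones at day 0. Pomp was not called in wild type, with a log2 fold change of -0.08 (SE 0.116, adjusted p = 0.592), and rose in knockout, with 0.56 (SE 0.117, adjusted p = 0.00278). Among 6 genes of the p97 unfoldase that delivers substrates, 4 were called higher and none lower in that comparison, with a median of 0.29 and a log2 fold change of 0.57 (SE 0.0626, adjusted p = 2.43e-05) for Vcp itself.

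The ubiquitin genes Ubb and Rps27a moved in opposite directions from day 0 to day 7. Ubb, which encodes ubiquitin as a repeat, was at 9546 and 9876 TPM (wild type) and 9292 and 11085 TPM (knockout) before injury, 6370.0 and 6267 (wild type) and 6855 and 7367 (knockout) on day 7, and 10102 and 8282 (labelled wild type) and 9110.2 and 8498 (labelled knockout) on day 21. Ubb was lowest in the 4 day 7 libraries and fell there, with a log2 fold change of -0.73 (SE 0.105, adjusted p = 1.77e-04). Rps27a encodes ubiquitin fused to a ribosomal protein and rose, with a log2 fold change of 0.76 (SE 0.0726, adjusted p = 9.45e-06). Of 8 ubiquitin ligase genes known from muscle, 5 were called higher and none lower, where 31.2% and 26.2% of all tested genes were called, led by Trim63 (MuRF1, a ligase of muscle fibres) with a log2 fold change of 5.69 (SE 0.295, adjusted p = 1.67e-07). The summed level of 6 muscle fibre markers moved the same way, from 56.9 to 90.2 TPM at day 0 to 2041 to 4349 TPM at day 7, and its part in these results was not tested.

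The transcription factor Nfe2l1 did not follow the subunit genes. Nfe2l1 was at 54.1 and 49.0 TPM (wild type) and 78.9 and 74.8 TPM (knockout) before injury, 47.5 and 53.4 (wild type) and 69.5 and 50.2 (knockout) on day 7, and 97.5 and 93.0 (labelled wild type) and 123 and 128 (labelled knockout) on day 21. Its level was highest at day 21, and in the day 0 knockout libraries it lay above the day 0 wild-type libraries. From day 0 to day 7 Nfe2l1 had a log2 fold change of 0.06 (SE 0.138, adjusted p = 0.767) in wild type and fell in knockout, with -0.54 (SE 0.139, adjusted p = 0.00831). From day 7 to day 21 it rose with a log2 fold change of 1.08 (SE 0.0987, adjusted p = 8.59e-06), in the comparison in which most subunit genes fell. Nfe2l2 (NRF2), a factor of the oxidative stress response, fell in wild type at day 7, with a log2 fold change of -0.75 (SE 0.208, adjusted p = 0.0145), and had a log2 fold change of 0.00 (SE 0.207, adjusted p = 1.00) in knockout. Ddi2, the protease that activates Nfe2l1, was called higher at day 7 in wild type, with a log2 fold change of 0.93 (SE 0.103, adjusted p = 5.54e-05), and not in knockout, with 0.11 (SE 0.102, adjusted p = 0.402). The difference between those changes of Ddi2 was -0.82 (SE 0.145, adjusted p = 0.00815) on the log2 scale. Of all 7 regulator genes, 2 were called higher and none lower at day 7 averaged over genotypes, a share near the 31.2% of all tested genes called higher.

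Other marker genes moved at day 7 as well, in a comparison in which 31.2% of all tested genes were called higher and 26.2% lower. All 6 proliferation markers, among them Top2a and Cdk1, were called higher, and their summed level was 15.8 to 53.9 TPM at day 0, 458 to 512 at day 7 and 24.97 to 62.1 at day 21. Of 10 tested immune cell markers, 7 were called higher and 1 lower, the myeloid gene Lyz2, with a log2 fold change of -2.95 (SE 0.190, adjusted p = 1.01e-06). The summed level of 11 immune markers was lower at day 7, at 372 to 583 TPM against 2032 to 3516 at day 0. Lyz2 was the 1 tested immune marker with a negative log2 fold change, and 9 had positive ones. The leukocyte marker Ptprc was at 0.0422 TPM or less in every day 0 library and 0.241 to 3.48 at day 7, and the T cell marker Cd3e was at 0.2 TPM or less in every library. All 5 red blood cell markers were called lower, with a median of -1.35, as were 2 of 5 endothelial and 2 of 5 skin markers, with none higher. Of 6 fibro-adipogenic markers 4 were called higher and 1 lower, with a median of 0.97. The part of dividing cells or of other cell types in the change of the Psm genes was not tested.

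None of the 3 immunoproteasome genes was called at day 7 averaged over genotypes. Psmb8 was at 30.8 and 32.1 TPM (wild type) and 28.7 and 26.6 TPM (knockout) before injury, 23.6 and 29.4 (wild type) and 45.6 and 36.8 (knockout) on day 7, and 49.8 and 22.9 (labelled wild type) and 60.4 and 25.1 (labelled knockout) on day 21. At day 7 the wild-type libraries of Psmb8 lay below those of day 0 and the knockout libraries above them. The log2 fold changes were -0.54 (SE 0.475, adjusted p = 0.390) in wild type and 0.57 (SE 0.476, adjusted p = 0.360) in knockout, and neither was called. Psmb10 was at 20.5 and 22.4 TPM (wild type) and 18.3 and 15.3 TPM (knockout) before injury, 18.3 and 17.6 (wild type) and 26.5 and 26.0 (knockout) on day 7, and 21.2 and 20.8 (labelled wild type) and 23.4 and 18.8 (labelled knockout) on day 21. Its wild-type libraries were lower at day 7 than at day 0 and its knockout libraries higher, without overlap. Psmb10 was called in opposite directions, with a log2 fold change of -0.49 (SE 0.161, adjusted p = 0.0300) in wild type and 0.51 (SE 0.162, adjusted p = 0.0236) in knockout. On log2(TPM + 1) with limma the wild-type value was -0.24 and was not called (adjusted p = 0.152). The wild-type fall also lost its call when any one of the 4 wild-type day 0 and day 7 libraries was left out (-0.57 to -0.43, adjusted p = 0.0614 to 0.147) and with an offset for GC content and transcript length (-0.35, adjusted p = 0.0783).

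The difference between the changes of Psmb10 in knockout and wild type was 1.00 (SE 0.228, adjusted p = 0.0208) on the log2 scale. It kept its call with DESeq2, both other count filters, limma on TPM and on the batch-corrected values, and the replicate block. It was not called when wild-type day 0 replicate 1 (1.06, adjusted p = 0.0614) or 2 (0.92, 0.0848), knockout day 0 replicate 2 (0.88, 0.102), wild-type day 7 replicate 1 (1.04, 0.0628) or 2 (0.96, 0.0737), or knockout day 7 replicate 2 (1.00, 0.0535) was left out, nor with the offset for GC content and transcript length described below (0.67, 0.0736). Psmb9 was at 9.34 and 6.34 TPM (wild type) and 8.38 and 3.99 TPM (knockout) before injury, 12.9 and 13.0 (wild type) and 14.7 and 19.4 (knockout) on day 7, and 13.1 and 7.54 (labelled wild type) and 11.3 and 5.46 (labelled knockout) on day 21. Psmb9 was the lowest of the 3, with 100 to 301 counts in a library, and in TPM its day 7 libraries lay above its day 0 libraries while those of day 21 overlapped both. In CPM its wild-type day 0 values, 7.68 and 5.62, enclosed those of day 7, 6.53 and 6.78, and the wild-type change was 0.00 (SE 0.375, adjusted p = 1.000) on the log2 scale. No change of Psmb9 was called by edgeR with all 12 libraries. Its rise in knockout was called by edgeR without both day 21 libraries whose Sesn2 went against the label (0.79, adjusted p = 0.0265) and with day 0 and day 7 libraries alone (0.79, adjusted p = 0.0259). With limma on log2(TPM + 1) that rise was 1.39 (adjusted p = 0.0128). The edgeR value with all 12 libraries was 0.81 (adjusted p = 0.104), and 0.58 (adjusted p = 0.231) with the offset for GC content and transcript length. Without knockout day 0 replicate 1 or 2 it was 1.15 or 0.52.

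As a share of each catalytic pair, which compares levels per length within a library, Psmb8 was 16.4 and 15.8% (wild type) and 13.9 and 13.9% (knockout) before injury, 8.18 and 9.75 (wild type) and 12.7 and 11.4 (knockout) on day 7, and 27.6 and 11.98 (labelled wild type) and 31.5 and 16.1 (labelled knockout) on day 21, taken of Psmb8 plus Psmb5 in TPM. The wild-type share was 16.1% ± 0.405 (SD, n = 2) at day 0 and 8.96% ± 1.11 at day 7, and the knockout share 13.9% ± 0.0311 and 12.03% ± 0.899, with no overlap between these days in either genotype. In CPM the knockout libraries of these days did overlap, with shares of 16.5% and 15.87% at day 0 and 15.94% and 14.3% at day 7. Of Psmb10 plus Psmb7, Psmb10 was 14.1 and 16.2% (wild type) and 16.1 and 14.6% (knockout) before injury, 9.52 and 9.34 (wild type) and 13.0 and 12.8 (knockout) on day 7, and 18.2 and 14.8 (labelled wild type) and 23.1 and 18.7 (labelled knockout) on day 21. At day 7 both knockout libraries lay above both wild-type libraries for this pair, and both genotypes lay below their day 0 libraries. Psmb9 made up 0.837% to 2.82% of Psmb9 plus Psmb6 in the 12 libraries, and the day 21 libraries overlapped both other days. These shares carry no test.

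**Figure D3:**
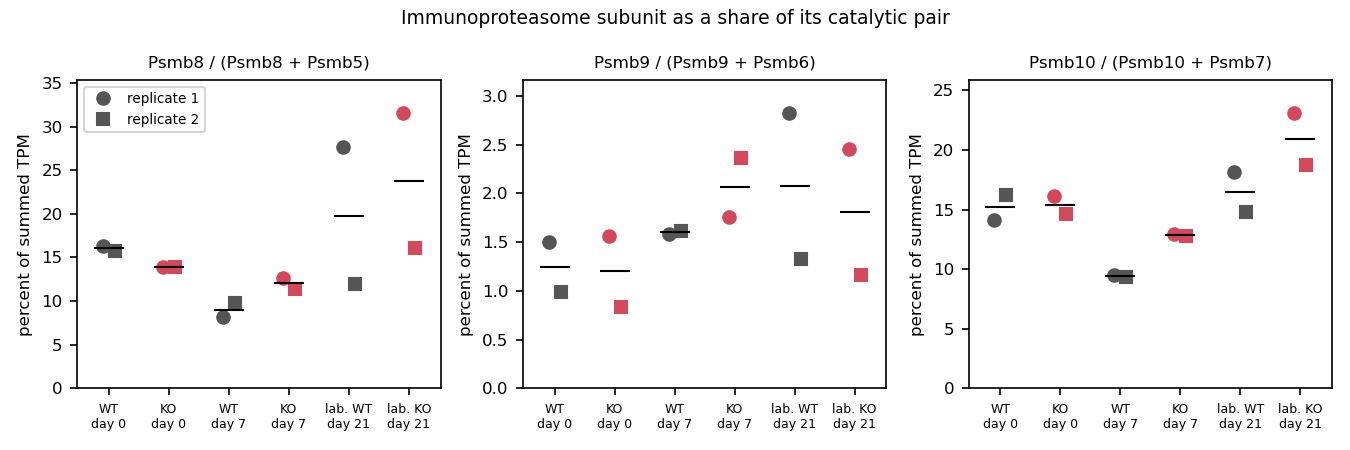
Share of the immunoproteasome subunit in the summed TPM of its catalytic pair (vertical, percent) by genotype and day (horizontal; grey wild type, red knockout, lab. for labelled). Points are libraries and lines the group means. The wild-type day 7 points for Psmb8 and Psmb10 are the lowest of their panels, and replicate 1 is the higher one under both day 21 labels.

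At day 21 Psmb8 differed more between replicate numbers than between labels. Psmb8 was at 49.8 and 60.4 TPM in replicate 1 of the libraries labelled wild type and knockout, and at 22.9 and 25.1 TPM in replicate 2. The same replicate 1 libraries had the low Sesn2 given above. In 13 of 14 interferon genes and 8 of 11 antigen presentation genes, both replicate 1 libraries lay above both replicate 2 libraries in TPM, as they did in 9.76% of all tested genes. Ifit1 was at 133 and 134 TPM in replicate 1 and 25.2 and 24.4 in replicate 2, and the MHC gene H2-K1 at 825 and 819 against 398 and 466. Psmb5, in contrast, was at 131 TPM in 3 of these 4 libraries and at 169 in the fourth. Because the groups were not labelled this way, no test was made between them. At day 7 edgeR called no antigen presentation gene between genotypes, of 11 tested, and no interferon gene, of 14, where 1.76% of all tested genes were called. At an unadjusted p under 0.05 there were 1 and 0, beside 2268 of all 15890 tested genes.

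Among the activators, PA28 gamma and PA200 rose in both genotypes. Psme3 was at 61.9 and 52.9 TPM (wild type) and 52.9 and 57.1 TPM (knockout) before injury, 121 and 123 (wild type) and 89.2 and 87.9 (knockout) on day 7, and 75.3 and 83.7 (labelled wild type) and 65.2 and 76.6 (labelled knockout) on day 21. All day 7 libraries of Psme3 were above all day 0 libraries, the wild-type ones highest. Psme3 rose with a log2 fold change of 1.04 (SE 0.0866, adjusted p = 9.69e-06) in wild type and 0.75 (SE 0.0864, adjusted p = 6.28e-05) in knockout. For PA200, Psme4 was at 9.50 and 10.2 TPM (wild type) and 10.5 and 9.84 TPM (knockout) before injury, 16.9 and 16.8 (wild type) and 14.2 and 16.3 (knockout) on day 7, and 15.9 and 19.1 (labelled wild type) and 9.48 and 12.3 (labelled knockout) on day 21. The day 7 libraries again lay above those of day 0, and Psme4 rose with a log2 fold change of 0.82 (SE 0.121, adjusted p = 3.65e-04) in wild type and 0.54 (SE 0.121, adjusted p = 0.00433) in knockout.

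With all 12 libraries, neither gene of the PA28 pair was called in wild type at day 7. Psme1 was at 107 and 121 TPM (wild type) and 109.8 and 114 TPM (knockout) before injury, 133 and 129 (wild type) and 147 and 142 (knockout) on day 7, and 139.8 and 125 (labelled wild type) and 124 and 91.3 (labelled knockout) on day 21. In TPM the day 7 libraries of Psme1 lay above those of day 0, whereas its CPM were lower in wild type, from 72.5 and 72.9 to 63.4 and 60.8. Its edgeR log2 fold changes were -0.23 (SE 0.156, adjusted p = 0.258) in wild type and 0.34 (SE 0.157, adjusted p = 0.1) in knockout. On log2(TPM + 1) the wild-type value had the other sign, 0.20 (limma adjusted p = 0.229). With edgeR it was called lower in wild type without both day 21 libraries whose Sesn2 went against the label (-0.24, adjusted p = 0.0176) and with day 0 and day 7 libraries alone (-0.27, adjusted p = 0.00840). Its partner Psme2 was at 171 and 167 TPM (wild type) and 141 and 149.5 TPM (knockout) before injury, and at 199.9 and 220.0 (wild type) and 236 and 239 (knockout) on day 7, higher at day 7 in both. On the edgeR scale Psme2 had a log2 fold change of 0.02 (SE 0.139, adjusted p = 0.927) in wild type and rose in knockout, with 0.65 (SE 0.140, adjusted p = 0.00321). The difference between these changes, 0.63 (SE 0.197, adjusted p = 0.0598), was not called. The inhibitor gene Psmf1 lay between 22.5 and 30.5 TPM in the 12 libraries and was called at day 7 in neither genotype.

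**Figure D4:**
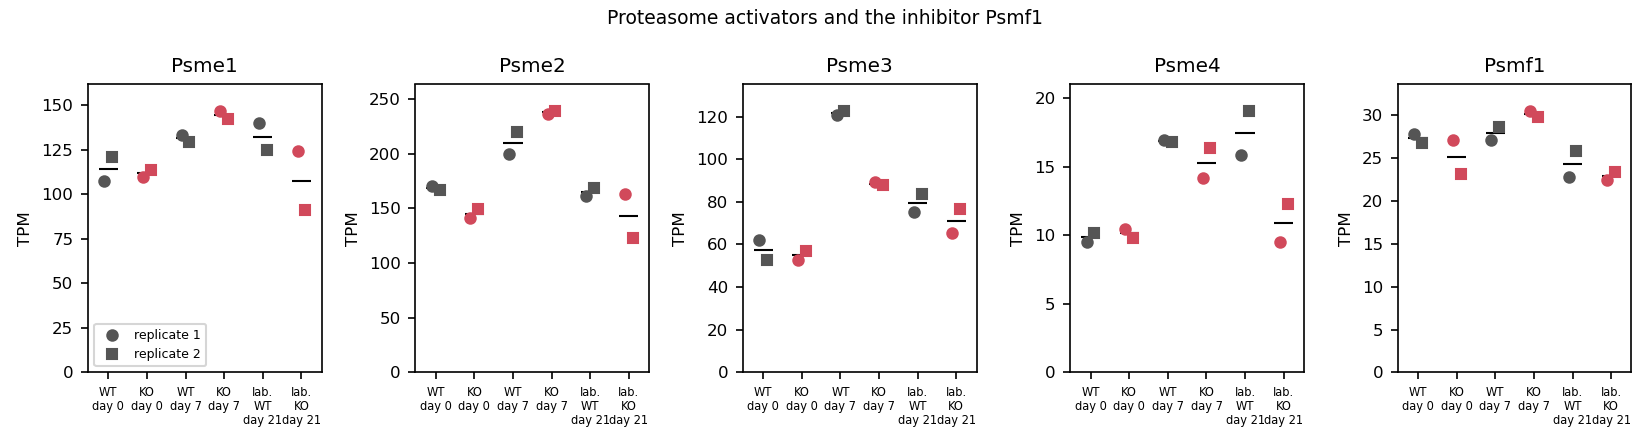
TPM (vertical) of the activator genes Psme1 to Psme4 and of Psmf1 in each library by genotype and day (horizontal; grey wild type, red knockout, lab. for labelled); lines are group means. Psme3 and Psme4 are high at day 7, and Psme3 stays above its day 0 libraries at day 21.

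From day 7 to day 21, averaged over both labels, 41 of the 48 genes were called lower and none higher, against 28.4% of all tested genes called lower and 28.4% higher. The median log2 fold change was -0.65, beside 0.01 for all tested genes. In the shortest of 5 equal classes of transcript length the median was -0.34 for all genes and -0.7 for the 27 Psm genes. In the longest class it was 0.46 for all genes, with the 1 Psm gene at -0.18. All 31 constitutive core and cap genes were called lower, with log2 fold changes from -1.08 to -0.45, and in CPM every day 21 library lay below every day 7 library, which held for 24.7% of all tested genes. Psmc1, an ATPase, was at 230.2 and 229 TPM (wild type) and 255 and 251 TPM (knockout) on day 7, and at 102 and 131 (labelled wild type) and 104 and 107 (labelled knockout) on day 21. Psmc1 fell with a log2 fold change of -1.05 (SE 0.0635, adjusted p = 8.39e-07). Psmg3, a chaperone of the alpha ring, fell with a log2 fold change of -1.10 (SE 0.119, adjusted p = 2.69e-05), and Psma5, an alpha-ring gene, with -0.92 (SE 0.0676, adjusted p = 2.41e-06). All 7 assembly chaperones were called lower, including Psmd10, with a log2 fold change of -0.92 (SE 0.12, adjusted p = 1.24e-04). The 3 immunoproteasome genes were not called, with log2 fold changes from -0.11 to 0.32. Of the 11 antigen presentation genes 6 were called higher and none lower. In CPM, 3 of the 11 had every day 21 library above every day 7 library, beside 3438 of all 15890 tested genes. The summed level of the 11 at day 21 was 5982 and 5618 TPM in the replicate 1 libraries. It was 3430.4 and 3601 in the replicate 2 libraries, within the 3318 to 3690.4 TPM of day 7. All 6 proliferation and 5 of 6 muscle fibre markers were called lower, with none higher. Of 10 tested immune markers 6 were called lower and 1 higher, and of 10 muscle stem cell markers 3 lower and 5 higher. All 5 red blood cell and 4 of 5 skin markers were called higher, with none lower. The part of dividing cells or of other cell types in these changes was not tested.

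Compared with day 0, 28 of the 48 genes were called lower and 3 higher at day 21, against 20.8% and 25% of all tested genes. The median log2 fold change was -0.25, beside 0.02 for all. Among 5 equal classes of transcript length, all genes of the shortest class had a median of -0.31, and the 27 Psm genes in it -0.25; in the next class the medians were -0.16 for all and -0.26 for 10 Psm genes. The beta ring was called lower in all 7 genes, with log2 fold changes from -0.44 to -0.22, as were 6 of 8 alpha-ring genes, 5 of 6 ATPase genes and 5 of 8 lid genes. Psmb3, a structural beta subunit, was at 347 and 338 TPM (wild type) and 305 and 278 TPM (knockout) before injury, and at 246 and 281 (labelled wild type) and 238 and 229 (labelled knockout) on day 21. Psmb3 fell with a log2 fold change of -0.44 (SE 0.0624, adjusted p = 2.80e-04). Psmd10 had the largest fall among called genes, with a log2 fold change of -0.73 (SE 0.13, adjusted p = 9.67e-04), and Psmf1 was called lower with -0.28 (SE 0.0743, adjusted p = 0.0103). The 3 genes called higher were Psme3, with a log2 fold change of 0.60 (SE 0.0610, adjusted p = 4.00e-05), Psme4, with 0.50 (SE 0.0858, adjusted p = 9.84e-04), and the lid gene Psmd11, with 0.24 (SE 0.0566, adjusted p = 0.00585). For Psme4 this average covers unlike labels: its CPM went from 39.8 and 38.5 at day 0 to 70.8 and 79.3 under the wild-type label and from 42.5 and 47.3 to 44.5 and 49.1 under the knockout label, where the days overlap. With limma on log2(TPM + 1), 13 genes were called lower and 5 higher. With an offset for GC content and transcript length 12 were called lower and 4 higher, with a median of -0.03. Among markers, 9 of 10 of muscle stem cells and all 6 of muscle fibres were called higher, with none lower. Of 10 tested immune markers 6 were called higher and 1 lower, and of 6 fibro-adipogenic markers 3 and 1. Of 6 proliferation markers 1 was called higher and none lower. The part of other cell types in these changes was not tested.

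Between genotypes at day 0, 17 of the 48 genes were called lower in knockout and 1 higher, against 12.6% and 14.8% of all tested genes. The median log2 fold change was -0.26, beside 0 for all. Called lower were 5 of 8 alpha-ring genes, 4 of 7 beta-ring genes, 3 of 6 ATPase genes, 2 of 8 lid genes, 1 of 3 other base genes and 2 of 7 assembly chaperones, and no activator, immunoproteasome or thymus gene. Psma4 was at 166 and 160.2 TPM in wild type and 115 and 106 in knockout, without overlap. It was lower in knockout, with a log2 fold change of -0.61 (SE 0.108, adjusted p = 0.00318). Psmb7, at 125 and 116 against 94.9 and 89.3 TPM, was lower with a log2 fold change of -0.43 (SE 0.0903, adjusted p = 0.00684). The ATPase gene Psmc6 had a log2 fold change of -0.40 (SE 0.115, adjusted p = 0.0281), and the lid gene Psmd7 -0.37 (SE 0.0832, adjusted p = 0.00955). The ubiquitin receptor gene Psmd4 had a log2 fold change of -0.32 (SE 0.0772, adjusted p = 0.0139), and the chaperone gene Psmd9 -0.42 (SE 0.107, adjusted p = 0.0159). Psmd3, a lid scaffold, was at 85.4 and 89.8 TPM in wild type and 109 and 111 in knockout. It was the 1 gene called higher, with a log2 fold change of 0.28 (SE 0.0901, adjusted p = 0.0426). Psmb5 was not called, with a log2 fold change of 0.00 (SE 0.103, adjusted p = 1.00).

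This genotype difference moved with properties of the transcripts and the libraries. By the longest GENCODE M21 transcript, 27 of the 48 genes were in the shortest of 5 equal classes of tested genes (up to 1676 bases) and 10 in the next. The median log2 difference of all tested genes between genotypes at day 0 ran from -0.24 in the shortest class through -0.10, 0.02 and 0.17 to 0.29 in the longest, and that of the Psm genes was -0.33, -0.26, -0.06, -0.10 and 0.20, the last for 1 gene. With an offset for GC content and length, 5 genes were called lower (Psma3, Psma4, Psma5, Psmd8, Psmd9) and 2 higher (Psmb5, Psmd3), and the median was -0.07. With limma on log2(TPM + 1), 9 were called lower and 3 higher. Leaving out wild-type day 0 replicate 1 or 2 left 2 or 4 genes called, and leaving out knockout day 0 replicate 1 or 2 left 8 or 2. Proliferation markers also differed at day 0, with 5 of 6 called lower in knockout (summed TPM 53.9 and 50.7 in wild type, 15.8 and 17.5 in knockout), where 12.6% of all tested genes were called lower. All 5 red blood cell markers and all 5 skin markers were called lower too, and the skin markers Krt5, Krt14 and Krt15 were listed at 0 TPM in both knockout libraries. The part of these in the difference was not tested.

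Regulators and partners differed at day 0 in both directions, where 14.8% of all tested genes were called higher in knockout and 12.6% lower. Nfe2l1, at 54.1 and 49.0 TPM in wild type and 78.9 and 74.8 in knockout, was called higher in knockout, with a log2 fold change of 0.85 (SE 0.139, adjusted p = 0.00233). Ddi2 was also higher, with a log2 fold change of 0.60 (SE 0.103, adjusted p = 0.00281), while Nfyb, a subunit of NF-Y, was lower, with -0.50 (SE 0.123, adjusted p = 0.0142). Of 15 partners, 4 were called lower, among them Pomp with a log2 fold change of -0.55 (SE 0.117, adjusted p = 0.00770). The 2 called higher were the ligase gene Ube3c, with a log2 fold change of 0.86 (SE 0.121, adjusted p = 0.00125), and AI314180 (Ecpas, which tethers the core to the cap), with 0.45 (SE 0.0885, adjusted p = 0.00506). The ubiquitin gene Rps27a was called lower, with a log2 fold change of -0.85 (SE 0.103, adjusted p = 6.29e-04).

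At day 7 none of the 48 genes was called between genotypes by edgeR, where 1.76% of all tested genes were called. An unadjusted edgeR p under 0.05 was found for 2 of the 48, beside 2268 of all 15890, and DESeq2 called 2 of the 48. The median log2 fold change was 0.07, beside 0 for all. The values of the immunoproteasome genes were 0.70 (SE 0.475, adjusted p = 0.581) for Psmb8, 0.30 (SE 0.374, adjusted p = 0.804) for Psmb9 and 0.59 (SE 0.161, adjusted p = 0.111) for Psmb10. Psme3, at 121 and 123 TPM in wild type and 89.2 and 87.9 in knockout, was lower in both knockout libraries, with a log2 fold change of -0.35 (SE 0.0856, adjusted p = 0.0774). Without replicate 1 or 2 labelled wild type of day 21, which enter the estimate of the spread, 1 gene was called.

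As labelled at day 21, none of the 48 genes was called by edgeR, where 0.0126% of all tested genes were, with 20 genes at an unadjusted p under 0.05, beside 2259 of all 15890, and 4 called by DESeq2. The median log2 fold change was -0.19, beside 0 for all. Psme4 was at 15.9 and 19.1 TPM under the wild-type label and 9.48 and 12.3 under the knockout label. The ranges did not overlap, and Psme4 had a log2 fold change of -0.68 (SE 0.121, adjusted p = 0.0814). Without replicate 1 of either label, or without the pair whose Sesn2 went against the label, a compared group holds 1 library. That pair is replicate 1 labelled wild type and replicate 2 labelled knockout. Some genes were then called, but such calls rest on the spread of the other groups, and their number is not given.

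**Figure D5:**
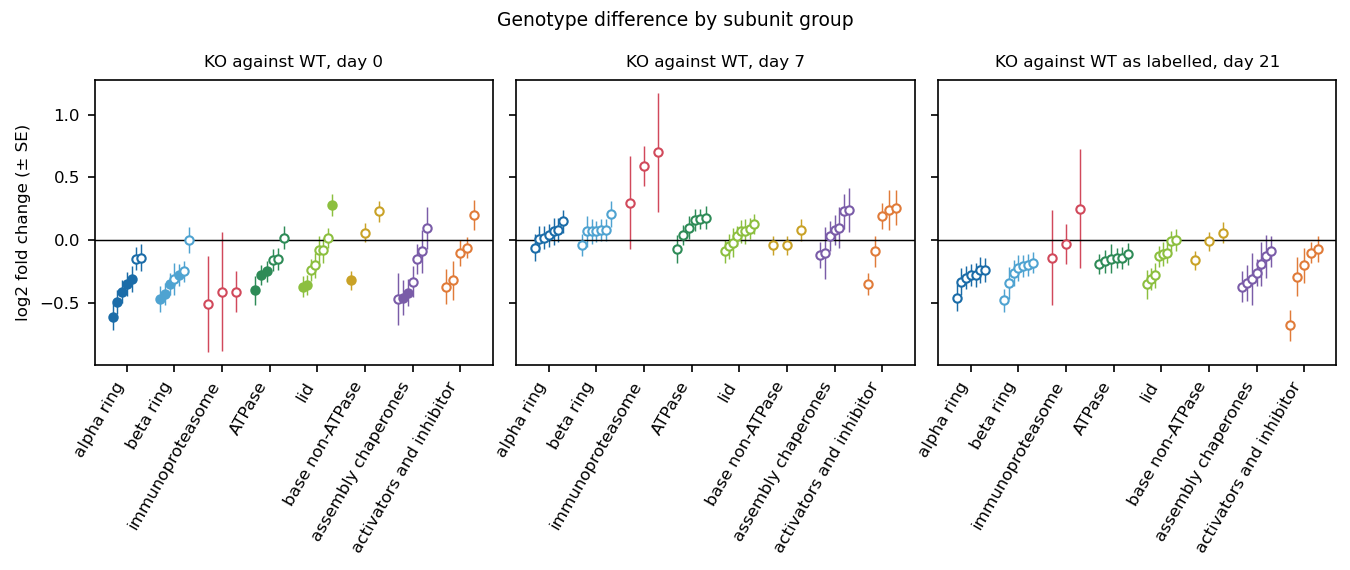
Log2 fold change of knockout against wild type (vertical, with standard errors) for 46 Psm genes by subunit group (horizontal) at day 0, day 7 and, as labelled, day 21. Filled points passed an adjusted p under 0.05 and open points did not. Filled points occur at day 0 only, and the immunoproteasome points are the highest at day 7.

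The change from day 0 to day 7 was larger in knockout than in wild type for 12 of the 48 genes and smaller for none, against 6.08% and 7.39% of all tested genes. The median difference was 0.32 on the log2 scale, beside 0.01 for all. The 12 were Psma3, Psma4, Psma5, Psma7, Psmb4, Psmb6, Psmb7, Psmb10, Psmc3, Psmd7, Psmd8 and Psmg1. This comparison shares its day 0 libraries with the genotype difference at day 0, where each of them but Psmb10 was called lower in knockout. Among markers, 3 of 6 of proliferation, 3 of 6 of muscle fibres and 3 of 10 of muscle stem cells were called larger in knockout, none smaller. Of 10 tested immune and 5 endothelial markers, 1 each was called smaller and none larger. The part of dividing cells or of other cell types in the difference was not tested. Psma5 was at 197 and 181 TPM (wild type) and 129 and 123 TPM (knockout) before injury, and at 279 and 289 (wild type) and 296 and 297 (knockout) on day 7. The genotypes of Psma5 were apart at day 0 and close at day 7, and the difference between the changes was 0.57 (SE 0.134, adjusted p = 0.0230). For Psmb7 it was 0.51 (SE 0.127, adjusted p = 0.0276), for the ATPase gene Psmc3 0.41 (SE 0.114, adjusted p = 0.0385), for the lid gene Psmd8 0.49 (SE 0.114, adjusted p = 0.0225) and for the chaperone gene Psmg1 0.69 (SE 0.196, adjusted p = 0.0432).

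This difference also moved with transcript length, from a median of 0.31 for all tested genes in the shortest class to -0.36 in the longest. With limma on log2(TPM + 1) 1 gene was called, and under the GC and length offset 2, 1 in each direction. Leaving out wild-type day 0 replicate 1 or 2, knockout day 0 replicate 2, or wild-type day 7 replicate 1 or 2 left 0 genes called. Without knockout day 0 replicate 1, knockout day 7 replicate 1 or knockout day 7 replicate 2, 1, 3 and 1 genes were called. Without both day 21 libraries whose Sesn2 went against the label, 20 were.

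Some of the 48 genes share sequence with other genes, so their estimated counts can be split. By GENCODE transcripts, 15 of the 48 had copies of at least 90% identity over at least 80% of the shorter of both transcripts, which can be a small RNA within the longer one, 30 in all, of which 20 were in the table. The largest were Gm14048, at 1.45% of the mean TPM of Psmd11, and Psme2b, at 1.31% of that of Psme2.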

How the data were processed

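RNA-seq libraries of muscle stem cells were sequenced single-end to 76 bases from SMART-Seq v4 and Nextera XT material, per the labels' protocols. The submitters' processing notes name kallisto 0.46.1 and the mouse builds mm10 and GRCm38.p6, without their roles. The deposited tables hold estimated counts per gene, TPM, which sum to 874221 to 883224 per library, and log2 values that the authors regularised and batch-corrected for a batch not named in the sources used here.

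Estimated counts were rounded, filtered (filterByExpr by group) and scaled by TMM in edgeR 4.0.16 under R 4.3.3. One mean was fitted per group over all 12 libraries (6 residual degrees of freedom), and each comparison was tested by quasi-likelihood with Benjamini-Hochberg adjustment over 15890 genes. Genes at an adjusted p under 0.05 are described as called. CPM were computed from the counts and TMM factors. Shares and levels use the deposited TPM. Library totals of 28396780 to 38950514 counts set the precision; no interval is given for the estimated counts. SMART-Seq does not mark strand, so antisense genes were not separated. The scripts were tested on simulated counts. Promoters came from RefSeq (GRCm38.p6) and transcript lengths and copies from GENCODE M21 (BLAST 2.17.0).

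The genes and lists were chosen with earlier results of these data known, and some listed genes are not reported here. Named with values were the catalytic pairs, Psme1 to Psme4, Psmf1 and, per comparison and subunit group, the called gene with the smallest adjusted p in each direction, plus Nfe2l1, Nfe2l2 and up to 3 called genes per pathway list; Psmd10, Psmg4, Pomp and others named beyond this, and Ifit1 and H2-K1, were chosen after their values were seen. Alternatives were DESeq2 1.42.0, its size factors, other count filters, limma 3.58.1 on log2(TPM + 1), log2(TPM + 0.1) and the deposited log2 values, a replicate block, subsets of the libraries, and an offset for GC content and transcript length, which was chosen after seeing the data.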

Additional observations from a re-analysis of the deposited data

Results flagged for a closer look

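In 12 genes the change from day 0 to day 7 differed between knockout and wild type by edgeR's quasi-likelihood test of that difference (adjusted p under 0.05). On the log2 scale the differences, knockout minus wild type, were 0.43 for Psma3, 0.56 for Psma4, 0.57 for Psma5, 0.50 for Psma7, 0.54 for Psmb4, 0.42 for Psmb6, 0.51 for Psmb7, 1.00 for Psmb10, 0.41 for Psmc3, 0.46 for Psmd7, 0.49 for Psmd8 and 0.69 for Psmg1. Psmb10 fell in wild type and rose in knockout, while the others are core, cap and chaperone genes that were lower in knockout at day 0. The part of transcript length, of the day 0 libraries and of dividing cells or other cell types in these differences was not tested.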

How the results depend on the processing

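The counts of called genes from day 0 to day 7 in wild type (29), in knockout (40) and averaged (39), and from day 7 to day 21 (41), stayed within 1.5 times of these values in the alternatives other than leaving out a library, and their directions did not turn. With one library left out they ranged from 16 to 30, 38 to 42, 36 to 40 and 39 to 42. The genotype count at day 0 was 18 (17 lower, 1 higher) and became 10 with limma on log2(TPM + 1) without a filter, 29 with day 0 and day 7 libraries alone and 7 under the GC and length offset; it ranged from 2 to 22 with one library left out. At day 7 it was 0, and 2 with DESeq2, 2 on the batch-corrected values, 3 without both day 21 libraries whose Sesn2 went against the label (labelled wild type replicate 1 and labelled knockout replicate 2), 3 with day 0 and day 7 alone and 1 with the offset, ranging from 0 to 1 with one library left out. As labelled at day 21, fits without those 2 libraries or without any 1 of that day leave 1 library in a compared group. Counts from such fits are not given for this comparison. With all 12 libraries the genotype count there was 0, and 4 with DESeq2, 1 without a filter, 2 on the batch-corrected values and 1 with the offset. From day 0 to day 21 it was 31 and became 18 and 18 with limma on log2(TPM + 1) and log2(TPM + 0.1), 17 without a filter there and 16 with the offset, ranging from 23 to 34. The count for the difference between the genotypes' changes was 12 and became 6 without a filter, 1, 1 and 1 with limma on TPM, 20 without those 2 libraries, 22 with day 0 and day 7 alone and 2 with the offset, ranging from 0 to 14. With the replicate number as a block that count was 6 and the genotype count at day 0 was 14; deviations of same-numbered libraries had correlations of -0.143 to 0.0700 over 15 pairs of groups, so the numbers were not taken to pair the libraries.

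With CPM in place of TPM, the share of Psmb8 in its pair was 20.5% and 16.2% at day 0 and 11.3% and 15.1% at day 7 in wild type and knockout, that of Psmb10 17.3% and 17.5%, and 10.8% and 14.7%, and that of Psmb9 2.62% and 2.31%, 2.38% and 2.77%, and 3.74% and 3.75% at day 21 as labelled. With 2 libraries a group, leaving one out moves a mean share by a fixed part of its SD, so no check was possible this way; the Psmb8 share labelled wild type at day 21 was 27.6% in replicate 1 and 11.98% in replicate 2. The offset turned Psmb6 to 0.01 for genotype at day 0, 0.04 from day 0 to day 21 and -0.01 for the difference between changes, and Ddi2 to -0.15 from day 7 to day 21. Nfyb from day 0 to day 21 turned to 0.11, 0.11 and 0.11 with limma on TPM and 0.01 on the batch-corrected values. Of 6336 values of named genes under the alternatives, 5683 kept direction and call, 393 lost the call and 129 gained it. Another 123 changed sign and were called in neither fit, and 8 changed sign and were called in the main or the alternative fit. The causes were not tested.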

Other observations

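Some values belong to no comparison between labelled groups. In the day 21 libraries the summed TPM of 11 antigen presentation genes was 5982 and 5618 in replicate 1 labelled wild type and knockout, and 3430.4 and 3601 in replicate 2, and that of 14 interferon genes was 1724 and 1814 against 1279 and 1132. Gbp2, an interferon-induced GTPase, was at 133 and 130 TPM in the former and 37.1 and 41.9 TPM in the latter. These genes were chosen after their values were seen, and no test was made between libraries sorted in this way.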
